A study of Mus musculus with 10 samples.

Results

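Collagens, laminins and the other matrix genes of brain vessels and meninges were followed in the brain of C57BL/6, an inbred mouse strain used throughout laboratory work. Members were the probe sets whose annotation gave a collagen chain symbol, a laminin chain symbol or 1 of 15 named genes: Nid1, Nid2, Sparc, Fn1, Fbn1, Fbn2, Bgn, Dcn, Lum, Mgp, Postn, Serpinh1, Hspg2, Fstl1 and Pdgfrb. This rule found 97 probe sets of 60 genes among 22626 probe sets on the array, and none for Fbn1. Of the 97, 56 probe sets of 44 genes were bright enough to be tested, and the other 16 genes had no probe set past that filter. The members fell into 17 probe sets of fibrillar collagens, 33 of basement membrane genes, 29 of other collagens and 18 of non-collagen matrix genes, with the vessel receptor gene Pdgfrb counted among the last. RNA was read on 10 Affymetrix MOE430A arrays, short-oligonucleotide arrays that measure a transcript with 1 or more probe sets. The labels name no treatment and no altered gene. There were 6 arrays at 1 week of age (3 labelled female, 3 labelled male) and 4 at 8 weeks (2 labelled female, 2 labelled male). The question of the comparison was how the brain differs with age and sex. The labels number the brains of a group and do not say that each is a separate animal, so the p-values measure the spread between these samples.

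Fibrillar collagens are secreted as triple helices that assemble into banded fibres. In and around the brain they are made mainly by fibroblasts of the meninges and of larger vessels, while the surrounding skull, skin and muscle are rich in them. Basement membranes are thin sheets in which a network of type IV collagen and a network of laminins are joined by nidogen and the proteoglycan perlecan. In brain they wrap every capillary and line the brain surface beneath the pia, and they are made by endothelial cells, pericytes and astrocytes.

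Each value below is a probe set's intensity after quantile normalization of the 10 arrays. Changes are differences of log2(intensity + 24), 8 weeks minus 1 week, with the standard error of the fit, and a change "passed" where limma's Benjamini-Hochberg adjusted p over all probe sets tested was under 0.05. The added 24 makes the change of dim genes look smaller than it was. Before normalization the trimmed means of the arrays ran from 138 to 318, and on that deposited scale the median change of all probe sets tested was 0.47, so the changes given are relative to the bulk of the array. Arrays of a group correlated at 0.956 to 0.976, and arrays of different ages at 0.864 to 0.901. The neuronal gene Snap25, a defining marker of brain, read 1884 to 2390 at 1 week and 3752 to 4358 at 8 weeks. Xist and the Y-linked Eif2s3y went against the sex label on 4 of the 6 arrays of 1 week: labelled female replicates 1 and 2 and labelled male replicates 2 and 3. On the array labelled female replicate 3 both transcripts were present, with Xist at 866 and Eif2s3y at 53.9. The counts of each class and the changes of the main genes are also given without arrays in doubt.

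Most matrix members were lower at 8 weeks. Of the 56 probe sets tested, 35 were lower and 1 was higher, with a median change of -0.58. Over all 13576 probe sets tested, 24.0% were lower and 22.0% higher, with a median of -0.02. Among fibrillar collagens 10 of 11 probe sets were lower, among basement membrane genes 8 of 17, among other collagens 9 of 13 and among non-collagen matrix genes 8 of 15. On 32 of the 56 the 2 ages did not overlap and the 8-week arrays were the lower, against 18.3% of all probe sets tested. By gene, with each gene read by its brightest probe set, 26 of 44 were lower and 1 was higher, where 24.0% of all 8148 genes tested were lower. The filter used the mean over all 10 arrays, of which 6 were young, so it let in genes high at 1 week more easily. At 8 weeks Postn, Col26a1 and Col1a1 averaged 30.8, 34.4 and 42.1, under the lowest mean kept of 74.5. Among genes that passed, Col5a2, Col15a1, Col8a1, Lamb1, Col3a1 and Col4a5 were also under it, at 52.4, 53.9, 56.8, 57.3, 63.7 and 66.7. Without the filter 52 of all 97 members were lower and 0 higher, with a median of -0.52, where 15.3% of all probe sets were lower. Less RNA of a gene in whole brain cannot be told apart from fewer of the cells that make it.

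**Figure D1:**
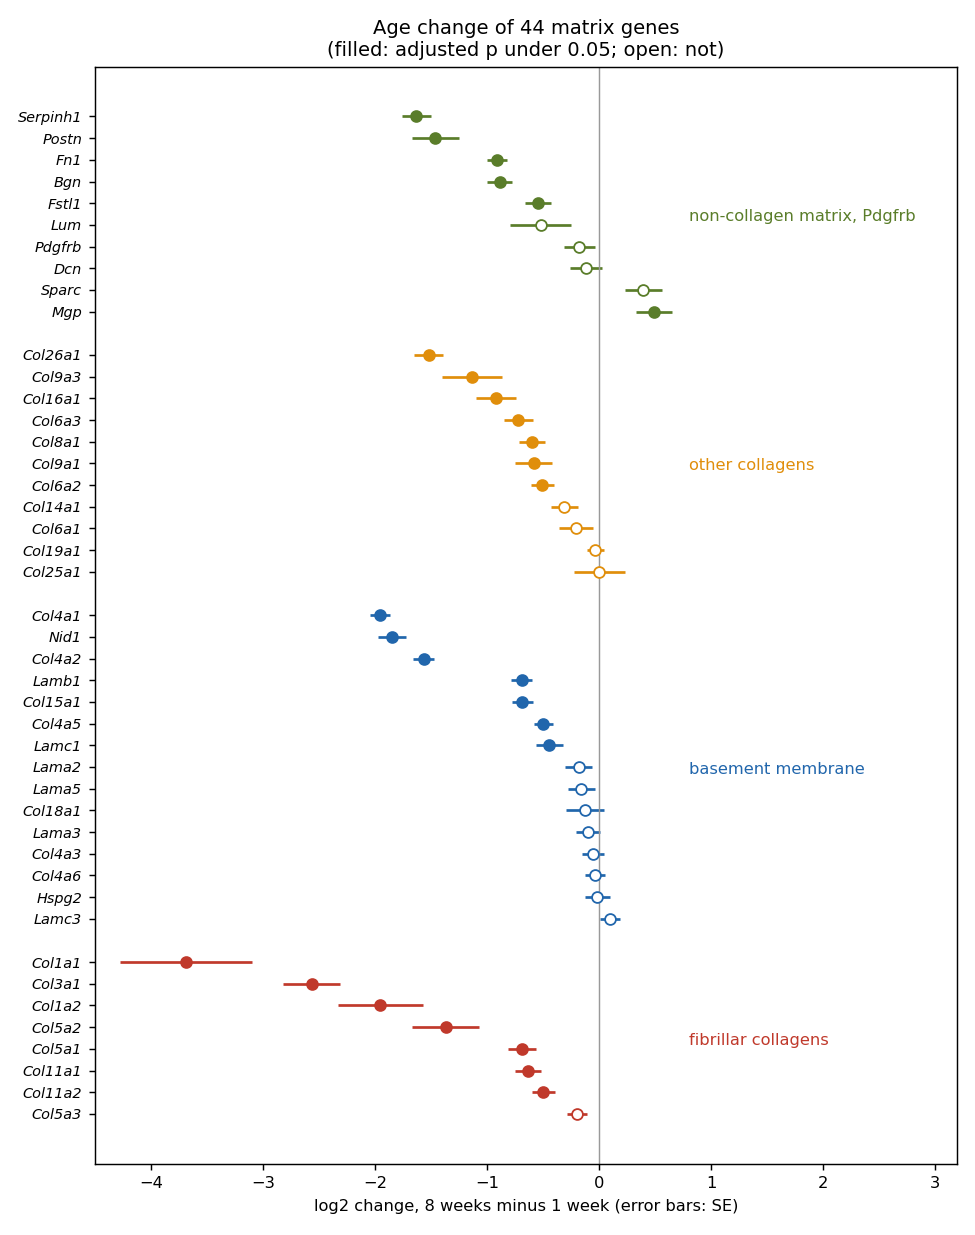
Change from 1 to 8 weeks of the 44 matrix genes tested, each by its brightest probe set, on the log2(intensity + 24) scale. Points are fitted changes over 10 arrays, bars are 1 standard error, and filled points passed the threshold; 26 filled points lie to the left of 0 and 1, Mgp, to the right.

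Fibrillar collagens had the lowest median change of the 4 classes. Col1a1, which encodes the major chain of type I collagen, read 365, 1453 and 3613 in the 1-week arrays labelled female and 905, 364 and 266 in those labelled male. At 8 weeks it read 12.0 and 61.0 in the arrays labelled female and 76.1 and 19.2 in those labelled male. All 1-week arrays lay above all 8-week arrays, and the 1-week arrays themselves differed 13.6-fold. The change was -3.69 ± 0.59 (adjusted p = 6.1e-04), and a second Col1a1 probe set gave -1.96 ± 0.44. Without labelled female replicate 3 of 1 week it was -3.31 (adjusted p = 6.7e-04), and without labelled female replicates 2 and 3 it was -2.84 (adjusted p = 0.0023).

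Col1a2, the partner chain of type I collagen, read 724, 1933 and 3786 in the 1-week arrays labelled female and 1330.5, 827 and 739 in those labelled male. The 8-week arrays read 268 and 366 under each sex label. The ages did not overlap, and the same 1-week array was the highest as for Col1a1. The change was -1.95 ± 0.38 (adjusted p = 0.0020), and -1.67 without labelled female replicate 3. A dimmer probe set of Col1a2 fell by 2.75 on the log2 scale.

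Col3a1, the chain of type III collagen that accompanies type I in vessel walls and soft connective tissue, read 327, 486 and 1044 in the 1-week arrays labelled female and 488, 458 and 376 in those labelled male. At 8 weeks the 4 arrays read 51.3, 71.5, 68.9 and 63.0. Here 5 of the 6 young arrays lay close together and labelled female replicate 3 stood above them. The change was -2.56 ± 0.25 (adjusted p = 2.9e-05), and -2.34 without that array.

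Col5a2, a chain of type V collagen that sits inside type I fibres and limits their width, read 101, 219 and 478 in the 1-week arrays labelled female and 132, 120.3 and 146 in those labelled male. All 8-week arrays lay between 47.2 and 54.9. It fell by 1.37 ± 0.30 on the log2 scale (adjusted p = 0.0040), and by 1.11 without labelled female replicate 3. The related chain Col5a1 fell by 0.68 ± 0.13, from 235 ± 43.8 (SD, n = 6) to 136 ± 14.9 (SD, n = 4). The type XI chains of cartilage and other tissues, Col11a1 and Col11a2, fell by 0.63 ± 0.12 and 0.50 ± 0.10, also with no overlap of the ages. On the deposited scale Col5a1, Col11a1 and Col11a2 kept their sign and did not pass, with changes of -0.21, -0.18 and -0.04. The third type V chain, Col5a3, lay at 143 ± 9.18 and 123 ± 16.9 with a change of -0.19 ± 0.09 that did not pass (adjusted p = 0.10), although it passed at -0.29 without labelled male replicate 2 of 8 weeks. Col2a1, the collagen of cartilage, was too dim on average to be tested. It read 39.8, 140.4 and 314 in the 1-week arrays labelled female, 15.4, 142 and 37.7 in those labelled male and 2.70 to 16.4 at 8 weeks. The ages overlapped, and in the fit without the filter its change was -1.70 ± 0.51 (adjusted p = 0.033).

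**Figure D2:**
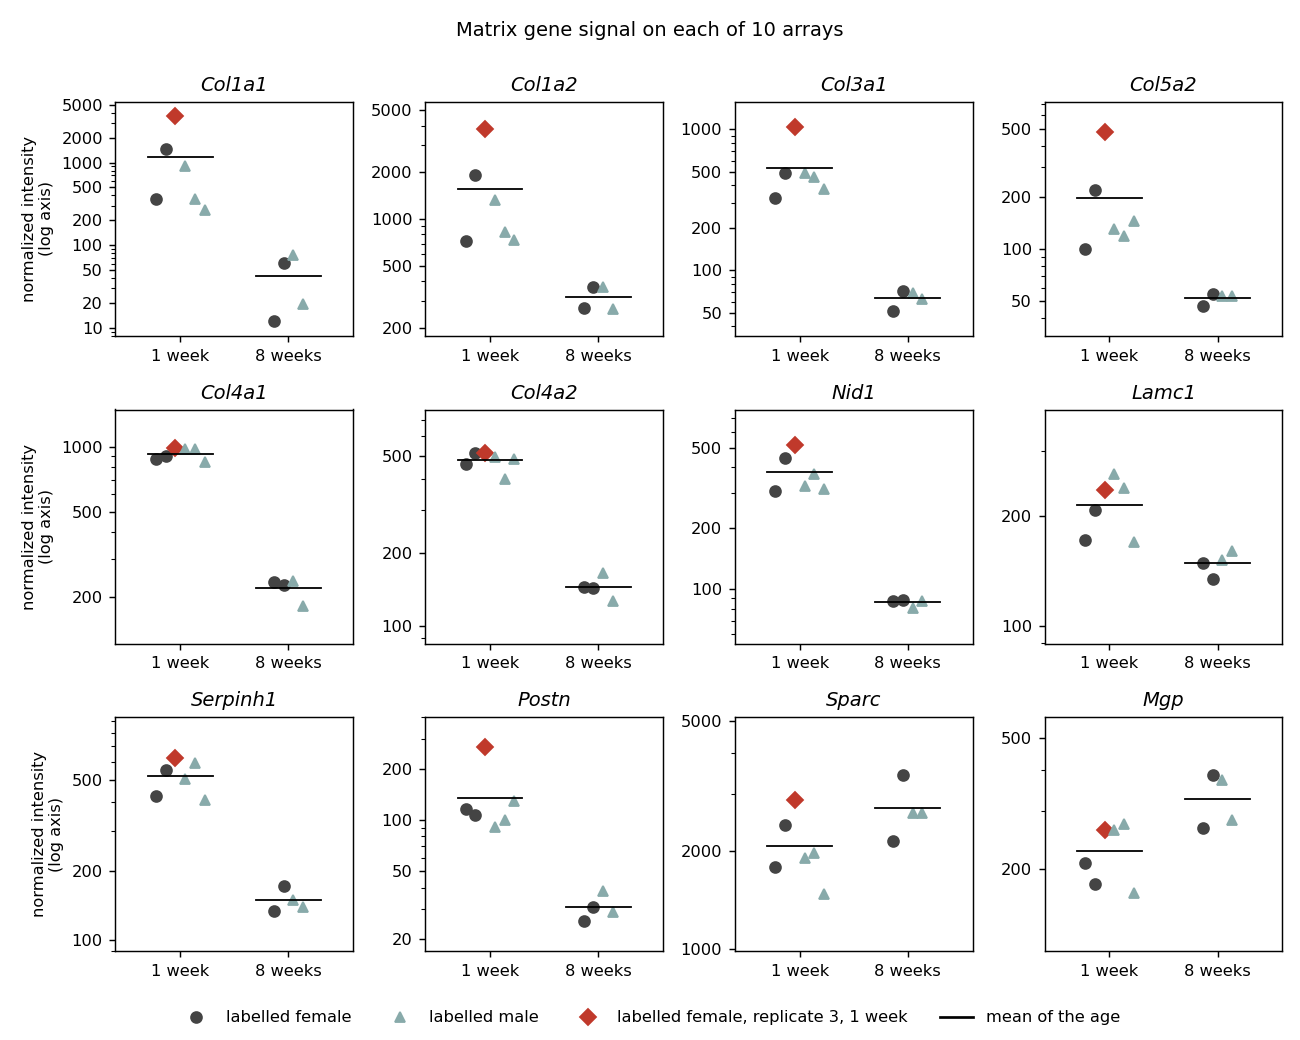
Normalized intensity (log axis) of 12 matrix genes on each of the 10 arrays by age, with fibrillar collagens in the upper row, basement membrane genes in the middle row and other matrix genes in the lower row. Bars are the means of 6 and 4 arrays; the diamond is labelled female replicate 3 of 1 week, at 3613 for Col1a1 and 990.1 for Col4a1, where the other 5 young arrays lie between 848 and 977.

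Of 15 basement membrane genes tested, 7 fell, with Col4a1, Nid1 and Col4a2 falling by 1.57 or more on the log2 scale, and 8 did not pass. Col4a1, the commonest chain of type IV collagen, read 873, 902 and 990.1 in the 1-week arrays labelled female and 974, 977 and 848 in those labelled male. The 8-week arrays read 236, 229, 238 and 183. The young arrays differed by 1.17-fold at most, and every one was far above the older arrays. The change was -1.96 ± 0.09 (adjusted p = 3.6e-07), and a second Col4a1 probe set gave -0.95 ± 0.08. Col4a2, which forms the type IV helix together with Col4a1, read 464, 511 and 515 in the 1-week arrays labelled female and 492, 399 and 484 in those labelled male. The older arrays read 145, 143, 165 and 128. Its change was -1.57 ± 0.09 (adjusted p = 1.5e-06), again with ages far apart relative to the spread. Nid1, the nidogen that links the collagen and laminin networks, read 305, 445 and 516 in the 1-week arrays labelled female and 325, 371 and 313 in those labelled male. At 8 weeks it lay between 80.7 and 88.8 on all 4 arrays. The change was -1.85 ± 0.13 (adjusted p = 3.3e-06).

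Col4a1 and Col4a2 lie head to head, and their start regions are shown because both genes fell while they share these bases. In RefSeq on GRCm38.p6 the start of Col4a1 is at chromosome 8 position 11312826 on the minus strand and that of Col4a2 at 11312805 on the plus strand, so the transcripts overlap by 22 bases. The window below is chr8:11312555-11312854, plus strand, from 250 bases before the Col4a2 start to 50 bases into the gene, with the 78 bases that also lie in the Col4a1 window in capitals.
Col4a2: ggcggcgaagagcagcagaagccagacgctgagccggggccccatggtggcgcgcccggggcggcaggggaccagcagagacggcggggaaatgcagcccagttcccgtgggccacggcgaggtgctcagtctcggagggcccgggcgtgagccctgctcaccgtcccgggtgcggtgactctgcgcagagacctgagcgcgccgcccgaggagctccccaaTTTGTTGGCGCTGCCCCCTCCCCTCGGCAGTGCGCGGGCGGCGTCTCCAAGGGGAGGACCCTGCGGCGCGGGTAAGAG
The windows of the fibrillar genes Col1a2 (chr6:4505368-4505667, plus strand) and Col3a1 (chr1:45311288-45311587, plus strand) are printed for comparison. These members fell with a wider spread between young arrays than Col4a2, which for Col3a1 lay mostly in labelled female replicate 3. CCAAT or TATAAA on either strand is in capitals.
Col1a2: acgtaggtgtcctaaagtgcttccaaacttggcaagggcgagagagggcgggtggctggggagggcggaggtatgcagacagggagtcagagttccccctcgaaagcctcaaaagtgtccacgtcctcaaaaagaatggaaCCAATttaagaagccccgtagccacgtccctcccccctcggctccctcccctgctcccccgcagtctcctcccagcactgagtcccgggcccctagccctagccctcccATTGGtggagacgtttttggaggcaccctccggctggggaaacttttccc
Col3a1: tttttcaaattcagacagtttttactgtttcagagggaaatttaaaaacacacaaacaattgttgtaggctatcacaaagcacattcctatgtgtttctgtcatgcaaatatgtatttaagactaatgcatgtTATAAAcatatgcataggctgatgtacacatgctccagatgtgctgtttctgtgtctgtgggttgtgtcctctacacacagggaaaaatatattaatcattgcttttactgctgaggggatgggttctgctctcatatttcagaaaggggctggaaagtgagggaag
Bases G and C made up 73.7% of the Col4a2 window, 61.0% of the Col1a2 window and 37.7% of the Col3a1 window, against a median of 52.7% over all 32851 windows in the table. CCAAT lies at -109 in Col1a2, with its reverse complement ATTGG at the start base, and at -32 in Col4a2, where the start base is counted as 0. The Col3a1 window holds TATAAA at -117. RefSeq windows were found for 39 of the 60 member genes, 44 windows in all. CCAAT on either strand was in 3 of 6 fibrillar and 6 of 16 basement membrane windows, against 37.4% of all windows. GGGCGG was in 5 of 6 and 10 of 16, against 35.7%, and TATAAA in 2 of 6 and 0 of 16, against 13.6%. These matches describe letters in a window and are not mapped binding sites.

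The other type IV chains had smaller changes or none that passed. Col4a5, a chain of the type IV networks of kidney and other specialised membranes, fell by 0.50 ± 0.08 (adjusted p = 8.9e-04), from 104 ± 11.8 (SD, n = 6) to 66.7 ± 5.52 (SD, n = 4), while on the deposited scale Col4a5 changed by -0.09 and did not pass. Its head-to-head neighbour Col4a6 read 97.8 ± 19.3 and 95.0 ± 21.2, with a change of -0.04 ± 0.09 that did not pass, while on the deposited scale Col4a6 changed by 0.39 and passed. The starts of Col4a5 and Col4a6 lie 1342 bases apart on chromosome X. Col4a3 changed by -0.05 ± 0.10 and did not pass. Col15a1, a collagen at the outer face of vessel basement membranes, fell by 0.68 ± 0.09 (adjusted p = 1.9e-04), from 101 ± 10.9 to 53.9 ± 5.02, and on the deposited scale changed by -0.30 and did not pass. Col18a1, the source of the fragment endostatin, read 249 ± 28.2 and 234 ± 82.1 and did not pass (-0.13 ± 0.17), although it passed at -0.38 when labelled male replicate 2 of 8 weeks, which read 350.4, was left out.

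Among laminins, Lamb1 fell by 0.69 ± 0.09 (adjusted p = 2.2e-04) and Lamc1, the gamma chain shared by most laminins, by 0.45 ± 0.12 (adjusted p = 0.012). Lamb1 read 85.9 to 128 at 1 week and 51.6 to 62.4 at 8 weeks, and Lamc1 170.1 to 259.9 and 135 to 161. Neither overlapped between ages. On the deposited scale Lamb1 changed by -0.30 and did not pass. Its dimmer probe sets below the filter changed by -0.23 and -0.21 in the fit without the filter and did not pass. The call of Lamc1 was lost without labelled female replicates 2 and 3 of 1 week (-0.34), and on the deposited scale its change was 0.04. The alpha chains tested, Lama2, Lama3 and Lama5, did not pass, with changes of -0.18 ± 0.12, -0.10 ± 0.11 and -0.16 ± 0.12. Lamc3, another gamma chain, changed by 0.10 ± 0.09 and did not pass, while on the deposited scale Lamc3 changed by 0.49 and passed. Hspg2, which encodes perlecan, read 764 ± 105 at 1 week and 754 ± 102 at 8 weeks, a change of -0.01 ± 0.11 that did not pass, while on the deposited scale it changed by 0.55 and passed. A dimmer Hspg2 probe set, below the filter and with overlapping ages, fell by 0.57 ± 0.18 in the fit without the filter (adjusted p = 0.042). By the brightest probe set of each tested basement membrane gene, a fall that passed was found for the Col4a1 and Col4a2 pair, Nid1, Lamb1, Col15a1, Col4a5 and Lamc1 and for none of the other 8.

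Dim basement membrane genes had no test in the main fit. Nid2, the second nidogen, read 67.3 to 80.7 at 1 week and 21.2 to 35.0 at 8 weeks. Fitted without the filter, where 15.3% of all probe sets were lower, Nid2 changed by -0.88 ± 0.09 (adjusted p = 1.5e-04). Col4a4 passed there too, with a change of -0.52 ± 0.15 (adjusted p = 0.027). Lama1, Lamb2 and Lamb3 did not pass in that fit, with changes of -0.31, -0.24 and 0.11. The laminin alpha chain gene Lama4, typical of vessels, had 2 dim probe sets whose ages did not overlap. In that unfiltered fit 52 of all 97 members were lower and 0 higher: 15 of 17 fibrillar, 15 of 33 basement membrane, 12 of 29 other collagen and 10 of 18 non-collagen probe sets.

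Fibrillar and basement membrane genes differed in the share that fell, in the median change and in the median spread between young arrays. The fibrillar median was -1.37 and the basement membrane median -0.18. A fall of at least 1 on the log2 scale that passed was found for 6 of 11 fibrillar and 3 of 17 basement membrane probe sets, against 2.89% of all probe sets tested. By gene, 7 of 8 fibrillar and 7 of 15 basement membrane genes were lower, with medians of -1.03 and -0.18, where 24.0% of all genes tested were lower. The ages did not overlap on 10 of 11 and 8 of 17 probe sets, with 8 weeks the lower, against 18.3% of all probe sets tested. Leaving out any array in turn kept the difference of the medians between -1.30 and -0.92, and leaving out labelled female replicates 2 and 3 of 1 week together gave -0.63, with 10 fibrillar and 7 basement membrane probe sets lower. The difference was -0.51 without the filter, where the medians were -0.81 and -0.31, and -0.59 with 96 added in place of 24. On the deposited scale the basement membrane median was 0.13 and the fibrillar median -0.97. These are counts and medians of lists, with no test of the difference.

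The median spread between young arrays was wider in fibrillar than in basement membrane probe sets, though not for every fibrillar gene. The SD of log2(intensity + 24) over the 6 arrays of 1 week had a median of 0.56 in fibrillar probe sets and of 0.17 in basement membrane probe sets, where all probe sets had a median of 0.16. The highest young array was on average 3.19 times the lowest for fibrillar (the median over probe sets) and 1.46 times for basement membrane. By gene the median SD was 0.40 and 0.16, and the highest young array was 2.43 and 1.46 times the lowest. The SD was 1.41, 0.93, 0.74 and 0.56 for Col1a1, Col1a2, Col5a2 and Col3a1. For Col5a1, Col11a1, Col11a2 and Col5a3 it was 0.23, 0.23, 0.22 and 0.08, below the 0.29 of the basement membrane gene Nid1. Labelled female replicate 3 was the highest young array in 10 of 11 fibrillar probe sets, in 5 of 17 basement membrane probe sets, in 5 of 13 other collagens and in 9 of 15 non-collagen probe sets. Over all probe sets tested it was the highest in 18.4%. Its deviation from the mean of the young arrays had a median of 1.05 on the log2 scale in fibrillar probe sets and of -0.01 in basement membrane probe sets. Without it, 10 fibrillar and 8 basement membrane probe sets were lower, as with it.

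**Figure D3:**
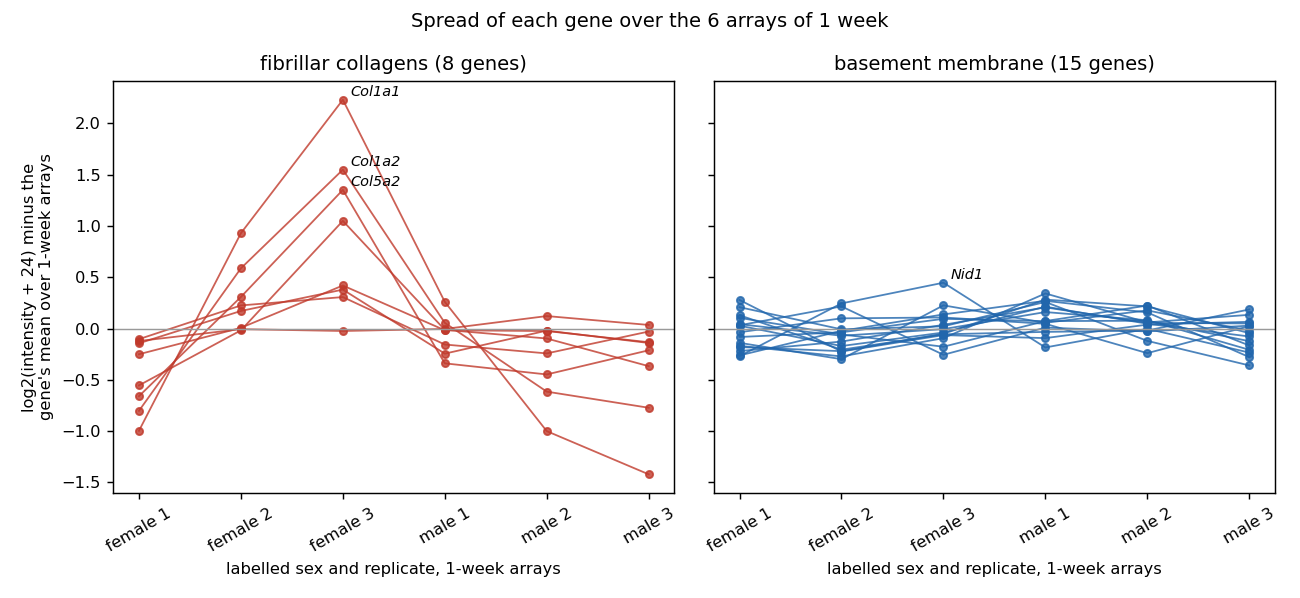
Deviation of each gene from its own mean over the 6 arrays of 1 week, on the log2(intensity + 24) scale, for 8 fibrillar genes (left) and 15 basement membrane genes (right). Each line joins the values of 1 gene and the order of the arrays has no meaning; Col1a1, Col1a2 and Col5a2 stand highest on labelled female replicate 3, where Nid1, the highest of the basement membrane genes on that array, lies well below them.

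**Figure D4:**
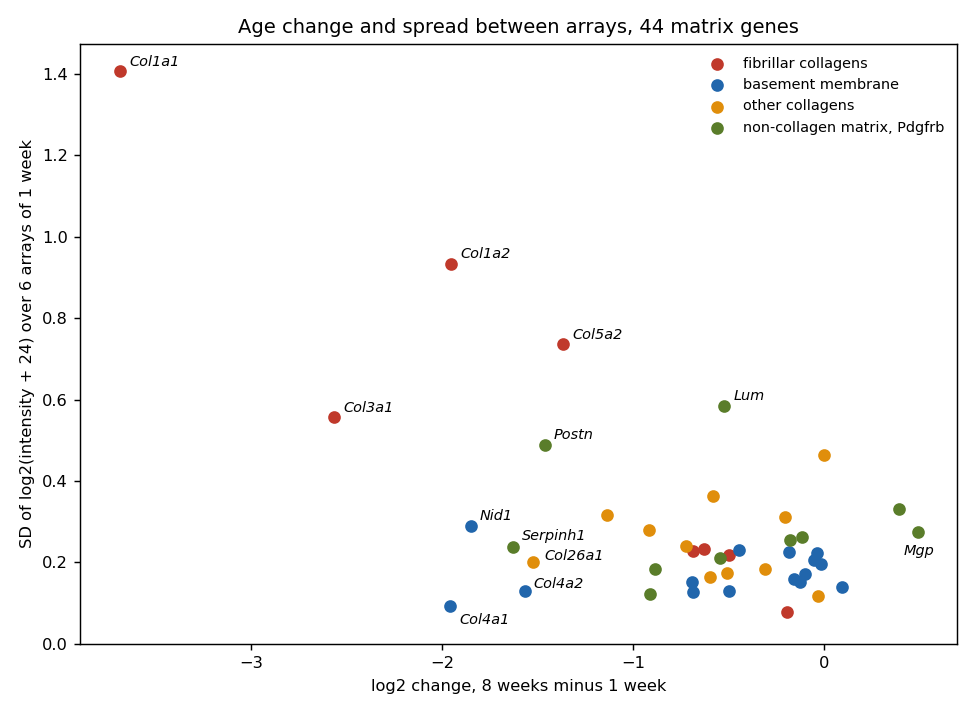
Change from 1 to 8 weeks (x axis, log2) against the SD of log2(intensity + 24) over the 6 arrays of 1 week (y axis) for 44 matrix genes coloured by class. Col1a1, Col1a2 and Col5a2 combine a fall with a wide spread, while Col4a1 and Col4a2 fell with an SD of 0.09 and 0.13.

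Other collagens were lower in 7 of 11 genes tested and higher in 0, where 24.0% of all genes tested were lower. Col26a1, a little studied collagen, read 109 to 174 at 1 week and 28.1 to 43.2 at 8 weeks and fell by 1.52 ± 0.13 (adjusted p = 1.0e-05). Its ages lay far apart. Of the type IX chains, which decorate cartilage and eye fibrils, Col9a3 fell by 1.13 ± 0.27 (adjusted p = 0.0065) and Col9a1 by 0.58 ± 0.17 (adjusted p = 0.016). Without labelled female replicate 1 of 8 weeks, which read 31.9, the change of Col9a3 was -0.75, and without the 4 arrays against their sex label it did not pass (-1.27, adjusted p = 0.079). Col9a1 overlapped between ages and lost its call in 4 alternatives, among them without labelled female replicate 1 of 8 weeks (-0.49) and without labelled female replicates 2 and 3 of 1 week (-0.39). Col16a1, which links fibrils to their surroundings, fell by 0.92 ± 0.18, from 193 ± 44.9 to 91.5 ± 25.9. Col8a1, a collagen of vessel walls, fell by 0.60 ± 0.12, and on the deposited scale changed by -0.22 and did not pass.

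Type VI collagen, a beaded filament next to basement membranes, was read by 3 chains, of which 2 passed. Col6a3 fell by 0.72 ± 0.13 (adjusted p = 0.0012) and Col6a2 by 0.50 ± 0.10 (adjusted p = 0.0026), although on the deposited scale they changed by -0.27 and 0.01 and neither passed. Col6a1 read 186, 194, 319, 175, 197 and 164 on the young arrays and 202, 137, 186 and 167 on the older ones. These ages overlapped, with labelled female replicate 3 of 1 week above the rest, and the change of -0.20 ± 0.15 did not pass. Whether the 3 chains differ from each other in their change was not tested. Col14a1 (-0.31 ± 0.12), Col19a1 (-0.03 ± 0.08) and Col25a1 (0.00 ± 0.23), a membrane collagen of neurons, did not pass either. On the deposited scale Col19a1 and Col25a1 changed by 0.39 and 0.43 and passed. Col14a1 passed at -0.43 without labelled female replicate 1 of 8 weeks and at -0.38 without labelled male replicate 2 of 8 weeks. A dimmer Col14a1 probe set, below the filter, fell by 0.86 ± 0.17 in the fit without the filter (adjusted p = 0.0050). Its ages did not overlap.

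Non-collagen matrix genes were lower in 5 of 10 genes tested and higher in 1, where 24.0% of all genes tested were lower and 21.9% higher. Serpinh1, the chaperone that folds collagen in the endoplasmic reticulum, read 425, 552 and 624 in the 1-week arrays labelled female and 505, 589 and 409 in those labelled male. At 8 weeks it read 135, 173, 151 and 140.2, well below every young array. The change was -1.63 ± 0.13 (adjusted p = 8.1e-06), and a second Serpinh1 probe set gave -0.84 ± 0.11. On the deposited scale that second probe set changed by -0.34 and did not pass. Postn, periostin, a secreted matrix protein of connective tissue, read 116, 107, 268, 90.7, 99.8 and 129 on the young arrays and 25.4 to 38.1 on the older ones. Labelled female replicate 3 again stood above the others. Postn fell by 1.46 ± 0.21 (adjusted p = 2.9e-04).

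Fn1, fibronectin, the adhesive glycoprotein of vessels and plasma, fell by 0.91 ± 0.09 (adjusted p = 3.0e-05), from 930.2 ± 82.8 to 483 ± 39.8. Bgn, biglycan, a small proteoglycan bound to collagen, fell by 0.89 ± 0.11 (adjusted p = 1.5e-04), and 1 of its 3 probe sets tested did not pass. Of the 11 member genes with more than 1 probe set tested, Bgn was the only one whose probe sets differed in call. Fstl1, a secreted glycoprotein, fell by 0.54 ± 0.12, and on the deposited scale changed by -0.04 and did not pass. Other small proteoglycans did not pass: Dcn, decorin, read 357 ± 64.7 and 324 ± 34.3 and changed by -0.12 ± 0.14, and on the deposited scale by 0.41, which passed. Lum, lumican, read 57.8, 136, 252, 129, 111 and 88.0 on the young arrays and 66.9 to 85.6 on the older ones, and its change of -0.52 ± 0.27 did not pass (adjusted p = 0.14). It passed at -0.75 without labelled female replicate 1 of 1 week. Pdgfrb, the receptor of pericytes, changed by -0.17 ± 0.14 and did not pass, although it passed at -0.29 without labelled female replicate 1 of 1 week.

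Mgp was the 1 member gene that rose, and Sparc is given beside it. Mgp, matrix Gla protein, an inhibitor of vessel calcification, read 208, 179.9, 262, 263, 273 and 168 on the young arrays and 265, 385, 371 and 281 on the older ones. The ages overlapped, and the change of 0.49 ± 0.16 passed (adjusted p = 0.032) but not in 10 of 24 alternatives, where the highest adjusted p was 0.39. The call of Mgp was lost without labelled female replicate 1 or 2 or labelled male replicate 3 of 1 week, and without labelled female replicate 2 or labelled male replicate 1 of 8 weeks. Sparc, a collagen-binding glycoprotein made by astrocytes and vessels, read 1786, 2406 and 2864 in the 1-week arrays labelled female and 1906, 1970.3 and 1477 in those labelled male. At 8 weeks it read 2143, 3434, 2613 and 2618. These values overlapped and the change of 0.39 ± 0.16 did not pass (adjusted p = 0.075), while it passed in 5 of 24 alternatives. These were the deposited scale (0.90), spike-in scaling (0.53), without labelled female replicate 3 of 1 week (0.47), without labelled female replicates 2 and 3 of 1 week (0.57) and without labelled female replicate 1 of 8 weeks (0.57). Fbn2, fibrillin 2, was below the filter at 38.0 to 47.8 on young and 9.23 to 17.3 on older arrays, and fell by 0.87 in the fit without the filter.

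Genes that make, bind and remove collagen were read from lists that are not members, beside 24.0% lower and 21.9% higher among all genes tested. Of 18 biosynthesis genes tested, 9 were lower and 0 higher. Ppib, an isomerase that folds collagen, fell by 0.89 ± 0.09, and Plod2, a lysyl hydroxylase of collagen, by 0.61 ± 0.10. The crosslinking oxidases Loxl1 and Lox fell by 0.85 ± 0.19 and 0.76 ± 0.10. Of 17 receptor genes, 7 were lower and 4 higher: the heparan sulfate proteoglycan Sdc3 fell by 1.40 ± 0.14 and the collagen III receptor Adgrg1 by 0.75 ± 0.18, whereas Sdc4 rose by 0.84 ± 0.09 and the integrin chain Itgav by 0.72 ± 0.10. Dystroglycan, the laminin receptor encoded by Dag1, fell by 0.63 ± 0.09. Of 13 turnover genes, 5 were lower and 4 higher, among them the membrane protease Mmp14, which cleaves collagen and fell by 1.02 ± 0.14, and Htra1 and Timp4, which rose by 0.86 ± 0.08 and 0.73 ± 0.15.

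Markers of other tissues were set beside the collagens because labelled female replicates 2 and 3 of 1 week stood high. The 15 skeletal muscle genes, with Pvalb left out because interneurons make it, summed to 1103 and 967 on these 2 arrays and to 362 to 498 on the other young arrays, and to 394 to 483 at 8 weeks. With Pvalb these sums were 1306 and 1237, 425 to 712, and 1615 to 3236. The muscle actin gene Acta1 read 336 and 261 on these arrays and 80.6 to 139 on the other young ones, and Myl1 read 84.1 and 93.2 against 2.04 to 13.7. Of the 16 listed muscle genes, 4 were bright enough to be tested. On the same arrays Col1a1 read 1453 and 3613. Of 13 bone and cartilage genes on the array 2 were tested, and their sum was 548 to 639 at 1 week and 498 to 512 at 8 weeks, lowest of the young arrays on labelled female replicate 3. Of 9 meningeal fibroblast genes tested 5 were lower. The meningeal sum without Zic1, made by cerebellar neurons too, and Pdgfra, made by oligodendrocyte precursors too, was 1898 to 2789 at 1 week and 1421 to 1696 at 8 weeks, highest on labelled female replicate 3 and lowest of the young arrays on labelled female replicate 2. With both genes the sum was 3171 to 5411 at 1 week and 2679 to 3960 at 8 weeks, so the ages overlapped. That sum was also highest on labelled female replicate 3, but lowest of the young arrays on labelled female replicate 1. The sums of endothelial and mural genes ran from 2849 to 3157 and from 3036 to 3504 at 1 week, and from 3084 to 3284 and from 2599 to 3228 at 8 weeks. Of the endothelial genes tested 4 were lower and 4 higher of 15, and of the mural genes 3 were lower of 6, where 24.0% of all genes tested were lower and 21.9% higher. The part of muscle, bone, meningeal or vessel cells in the collagen results was not tested. Without labelled female replicates 2 and 3, Col1a1, Col1a2, Col3a1 and Col5a2 still passed, with changes of -2.84, -1.33, -2.21 and -0.87.

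No member passed for labelled sex over both ages, for labelled sex at 8 weeks alone or for the interaction of age and labelled sex in limma's adjusted p, where 0 of all 13576 probe sets passed. At an unadjusted p under 0.05 there were 1, 1 and 6 of 56 members, and 469, 345 and 759 of all probe sets tested (3.45%, 2.54% and 5.59%). Since the sex labels of 1 week went against Xist and Eif2s3y on 4 arrays, the comparison at 8 weeks is the one whose labels matched those transcripts. It rests on 2 arrays against 2, whose number limits the precision. Its standard error pools the spread of all 4 groups, the 1-week groups with labels in doubt included. Even Xist, at 1676 and 1405 in the 8-week arrays labelled female and 131 and 134 in those labelled male, did not pass. The absence of calls therefore cannot show that members do not differ by sex. With age alone in the model and the 4 arrays left out, 10 fibrillar, 6 basement membrane and 14 of the other member probe sets were lower, where 2 young arrays remained. Col1a1, Col1a2, Col3a1 and Col5a2 then changed by -4.97, -2.74, -3.11 and -1.90, and Col4a1, Col4a2, Nid1 and Serpinh1 by -2.05, -1.65, -2.00 and -1.77, and all 8 passed. In that setting Col9a3 and Mgp lost their call and Lum gained one (-1.06). With labelled female replicate 3 left out as well, the counts were 7, 6 and 9, and the 1 young array that remained was assumed to vary like the others.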

How the data were processed

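Brain RNA of 10 samples was measured on 1 array each. The authors deposited a linear intensity for each probe set and array. How probes were summarised is not given in the sources used here. Detection calls were not used. Of 22690 rows, 64 array controls were left out. GEO's platform annotation gave 20380 probe sets 1 symbol, 691 several and 1555 none.

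Intensities were quantile normalized, 24 (the 20th percentile) was added, log2 taken, and probe sets under the 40th percentile of mean log2 left out. Linear models with a mean per group of age and labelled sex used limma 3.58.1 under R 4.3.3 (lmFit, eBayes), two-sided, Benjamini-Hochberg adjusted over 13576 probe sets. The pipeline was tested on simulated data.

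The members and lists were chosen with earlier results of these data known. Any member gene could be named, by its brightest probe set, and from each pathway list up to 4 genes of the largest change in the commoner direction and up to 2 in the other; from marker lists, the 3 brightest. Snap25, Acta1, Myl1, Ctsk and Pcolce were named, and Pvalb, Zic1 and Pdgfra set apart from their lists, after their values were seen. Deviations of same-numbered arrays from their group means correlated weakly (13 pairs, r from -0.03 to 0.19, 5 over 0.1). Differently numbered pairs were not computed, and deviations within a group of 2 arrays mirror each other. These values therefore do not settle whether same-numbered arrays deviate together. Promoter windows came from RefSeq, GRCm38.p6. Alternatives covered normalization, pseudocount, filter, replicate block, array weights, a trend, a 2-fold minimum and each array left out. After the data were seen, spike-in scaling, 5 arrays left out and 2 young arrays left out were added.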

Additional observations from a re-analysis of the deposited data

Results flagged for a closer look

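In the 44 genes tested, 88 groups of 1 age were searched for an array far from the rest, by the gap to the nearest array over the whole range (above 0.625 for 6 arrays and 0.829 for 4). Chance flags about 1 in 20 groups, and 10 were found, 5 at each age. At 1 week, labelled female replicate 3 was far above the others for Col3a1 (1044), Col6a1 (319) and Postn (268). Labelled male replicate 1 of 1 week was far above the others for Col8a1 (126), and labelled male replicate 2 far below them for Col25a1 (43.5). At 8 weeks, labelled female replicate 1 was the highest for Col25a1 (132) and the lowest for Col5a2 (47.2). Labelled female replicate 2 was the lowest for Col4a5 (58.5), labelled male replicate 1 for Nid1 (80.7) and labelled male replicate 2 for Col4a1 (183).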

How the results depend on the processing

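Over all single-gene results and alternatives, 954 kept their side of the threshold, 35 lost the call and 15 gained it. The 954 include turns of sign where neither fit passed, such as Col18a1 (0.38) and Lama5 (0.31) without normalization between arrays. The other 6 turned sign with a call in either fit, all without normalization between arrays: Col19a1 (0.39), Col4a6 (0.39), Col6a2 (0.011), Dcn (0.41), Hspg2 (0.55) and Lamc1 (0.037). That setting gave 629 probe sets lower and 8673 higher of all tested, 6 fibrillar, 4 basement membrane and 8 other members lower, 3 basement membrane and 6 other members higher, medians of 0.13 (basement membrane) and -0.11 (other members), and 2 probe sets for labelled sex. Without a filter 15 basement membrane probe sets were lower and 0 other members higher, the fibrillar median was -0.81 and the difference of fibrillar and basement membrane medians -0.51. The 60th percentile filter left 6 fibrillar, 5 basement membrane and 10 other members lower, with medians of -2.26 and -0.70. A log2 change of at least 1 left 6, 3 and 4. A pseudocount of 96 gave a difference of -0.59. Spike-in scaling, chosen after seeing the data, gave 1156 lower of all probe sets and 2 other members higher. Without the 4 arrays against their sex label 1973 of all probe sets were lower and 2069 higher, and 0 other members were higher, with a fibrillar median of -1.90, and without labelled female replicate 3 as well 1747 lower, 1975 higher, 9 other members lower and 0 higher. Without labelled female replicates 2 and 3 the fibrillar median was -0.87, the difference -0.63 and 2 other members were higher. Same-numbered arrays share only a number: with a replicate block, 3054 of all probe sets, 10 fibrillar, 8 basement membrane and 16 other members were lower, and 0 other members higher.

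With each array left out in turn, 2729 to 3126 of all probe sets were lower and 2480 to 2936 higher, 10 to 11 fibrillar, 8 to 10 basement membrane and 15 to 19 other members were lower, and 0 to 2 other members higher. The fibrillar median ran from -1.62 to -1.11, that of basement membrane from -0.43 to -0.15, that of other members from -0.62 to -0.49 and the difference from -1.30 to -0.92. The causes were not tested. Dim genes are limited by signal over background.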

Other observations

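The dim laminin gene Lama4, chosen here after its values were seen, had 2 probe sets with different patterns over the young arrays. One read 84.8, 80.7 and 85.4 in the 1-week arrays labelled female and 33.2, 28.1 and 34.4 in those labelled male, with 5.38 to 16.4 at 8 weeks. The other read 45.9, 46.3 and 54.1 under the female label, and under the male label 107, 52.0 and 69.5. Both were below the filter.

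Ctsk, a collagen-cleaving cathepsin, and Pcolce, an enhancer of procollagen processing, also chosen after their values were seen, were highest among young arrays on labelled female replicate 3. Ctsk read 279 there, 156 on labelled female replicate 2 and 64.9 to 83.7 on the other young arrays. Pcolce read 235, 126 and 71.5 to 85.0. Neither passed for age, with changes of -0.44 ± 0.27 and -0.11 ± 0.24.

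Sums of marker lists for tissues at the edge of a brain dissection also varied between arrays. Of 8 pituitary genes on the array 5 were tested, with 0 lower and 2 higher, and the sum ran from 417 to 2794 at 1 week, highest on labelled female replicate 2, and from 1152 to 13660.2 at 8 weeks. Choroid plexus genes summed to 5312 to 6703 at 1 week and 4612 to 9769 at 8 weeks, with 0 lower and 1 higher of 4 tested. The 7 blood genes on the array summed to 758 to 1401 and 2273 to 2929. Of these 2 were tested, with 1 lower and 1 higher, so the sum does not show a shared direction of the genes. Skin genes summed to 656 to 1031 and 519.5 to 635, with 1 lower of 3 tested.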
